A study of Arabidopsis thaliana with 24 samples.

Results

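The mitochondria-encoded genes are the 152 rows of the deposited count table whose identifier begins with ATMG, out of 32833 rows in all. They were followed in 24 libraries of polyadenylated RNA from whole seedlings of Arabidopsis thaliana, Columbia-0, in 8 groups of 3 biological replicates. Genotype (wild type, WT, or pifq), light (darkness or white light) and treatment (mock or the hormone abscisic acid, ABA) were combined. The mutant pifq lacks the phytochrome-interacting factors PIF1, PIF3, PIF4 and PIF5, transcription factors that keep seedlings in the dark-grown form. Mock was ethanol, and no ABA dose is stated in the labels. All seeds were stratified for 2 days and grown at 22 °C. Dark groups received a light pulse of 2 h and were moved at 62 h, followed by 4 days without light. Light groups stood in 10 µmol m-2 s-1 for 16 h a day with 8 h of night and were moved at 72 h, followed by 5 days of the same light. These times hold unless the authors stated otherwise. Light cannot be told apart from the age of the seedling, the time after the move or the light pulse. This holds also where an ABA or genotype effect is compared between light and darkness. Where groups are named WT dark mock or pifq light ABA, these 3 words give genotype, light and treatment.

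The mitochondrial genome of flowering plants encodes some of the subunits of respiratory complexes I, III, IV and V, part of the cytochrome c maturation machinery, ribosomal proteins, ribosomal RNAs and transfer RNAs. The other subunits of these complexes are encoded in the nucleus and imported. In plant mitochondria a poly(A) tail marks an RNA for degradation and is not a stable feature of mature transcripts. The libraries were made by oligo(dT) selection, and whether the counts follow total mitochondrial RNA was not tested. In such bulk samples, fewer cells of a type and less RNA per cell cannot be told apart. Fewer mitochondrial genomes per cell cannot be told apart from these either.

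Of the 152 rows, 55 held no count in any library and 97 held at least 1 count. The filter on low counts kept 36 of them, beside 20828 of 32833 rows of the whole table. All mitochondrial rows together held 409047 counts. Totals per library lay between 13722850 and 17538529 counts, and 3 counts, the limit that a count of 0 allows for counting error, correspond to 0.171 to 0.219 CPM in a library, where CPM is a count scaled to the size of its library. Row counts are not divided by gene length and so do not rank transcripts by abundance. The transcript of PIF3 (AT1G09530), a gene disrupted in pifq, was at 28.3 to 160 CPM in WT in light, against 0.873 to 16.6 CPM in pifq in light. In darkness PIF3 (AT1G09530) lay between 55.9 and 150 CPM in WT and between 1.67 and 24.6 CPM in pifq, so every pifq library was below every WT library of the same light. PIF1 (AT2G20180) was not lower in pifq in either light, and PIF4 (AT2G43010) was lower in light alone. PIF5 (AT3G59060) in light ranged over 179 to 419 CPM for WT, against 28.4 to 58.4 CPM for pifq, but in darkness its ranges, 33.9 to 69.7 and 12.7 to 36.8 CPM, overlapped. In lines of this kind a transcript can persist while the protein is lost.

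The reference annotation of TAIR10.1 cites 53 of the 152 identifiers in notes on near-identical genes or pseudogenes of chromosome 2. The notes name 45 of them, and the other 107 rows are given here by identifier alone. A long insertion of mitochondrial DNA lies in chromosome 2 of Columbia-0. Cut into windows of 100 bases, the length of 1 read, the mitochondrial genome of TAIR10.1 (367808 bases) had 67.6% of 367709 windows present without a mismatch in the nuclear chromosomes. Of 38 mitochondrial genes long enough to hold such a window, 16 had every window in the nuclear genome and 8 had none. Among the 8 were cox1, a core subunit of cytochrome c oxidase, and the ribosomal RNA genes rrn26 and rrn18. Among the 16 were atp1, cob and cox3. The stretches below were chosen because a read from them can or cannot tell the mitochondrial gene from its nuclear copy. They are from TAIR10.1, RefSeq, in lower case and 5′ to 3′, with a capital at the base that differs between a mitochondrial stretch and its copy.
atp1 region, mitochondrial genome, MT:69168-69227, minus strand: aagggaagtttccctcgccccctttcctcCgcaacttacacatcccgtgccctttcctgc
AT2G07698, chr2:3361899-3361958, plus strand: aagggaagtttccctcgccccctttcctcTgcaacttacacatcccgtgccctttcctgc
cob, MT:182799-182858, minus strand, identical in AT2G07727, chr2:3450863-3450922, plus strand: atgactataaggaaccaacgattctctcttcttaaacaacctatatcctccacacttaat
cox3, MT:330714-330773, minus strand, identical in AT2G07687, chr2:3312592-3312651, minus strand: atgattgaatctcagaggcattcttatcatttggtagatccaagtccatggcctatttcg
cox1, MT:116286-116345, minus strand, with no identical copy in chromosome 2: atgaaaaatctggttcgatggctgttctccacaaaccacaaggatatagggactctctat

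Over its 2665 aligned bases AT2G07698 differs from the mitochondrial genome by 1 base, C30T, with positions counted from 1 at the 5′ end of the stretch, and that base lies outside atp1 itself. AT2G07727 does not differ over 3243 bases, nor AT2G07687 over 998 bases. The counts followed this sequence identity unevenly. ATMG01190, named ATP synthase subunit 1 in the reference, held 9 counts over the 24 libraries, while its chromosome 2 copy AT2G07698 held 2042. ATMG00220, named apocytochrome b and a core subunit of complex III, held 0 counts against 221 in AT2G07727. ATMG00730, named cytochrome c oxidase subunit 3, held 2 counts against 115 in AT2G07687. ATMG01090, named ATP synthase 9 mitochondrial, went the other way with 600 counts against 2 in AT2G07777. No source used here says how reads with several matches were counted, so a row's count and that of its copy cannot be told apart by source. The 53 rows cited in the notes on chromosome 2 held 2250 counts, 0.550% of the mitochondrial counts, and 5 of them passed the filter. The 99 rows not cited held 99.4%, and 31 of them passed. A row that is not cited can still share sequence with the nuclear genome, as 67.6% of all mitochondrial windows did.

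The mitochondrial counts were dominated by 3 rows. ATMG00020 held 65.1% of them, ATMG01390 held 19.9% and ATMG00030 held 6.50%. Together these rows made up between 82.9% and 96.0% of the mitochondrial counts of a library. The reference notes name none of the 3, so any ribosomal RNA rows among them could not be set apart. The share of all mitochondrial rows mainly follows these 3. ATMG00090 followed with 1.41% and ATMG01360 with 0.806%. The 61 rows with counts that did not pass the filter held between 1 and 143 counts each over the 24 libraries.

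**Figure D1:**
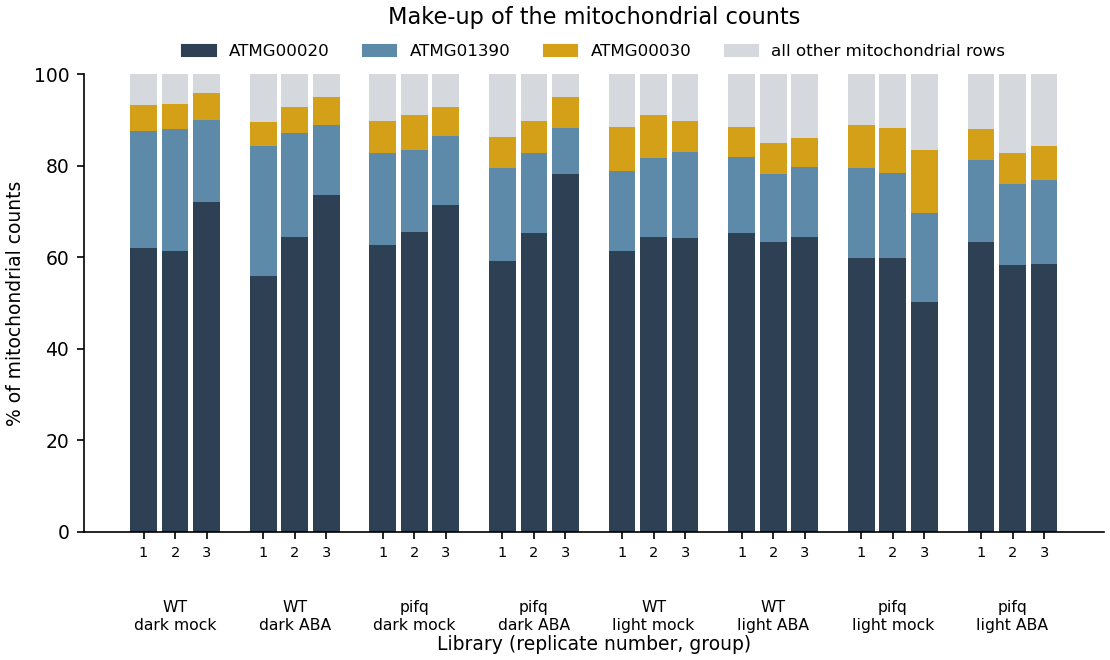
Share of the mitochondrial counts of each library held by ATMG00020, ATMG01390, ATMG00030 and all other mitochondrial rows, in percent, for the 3 replicates of each group. Replicate 3 of each dark group has the largest share of ATMG00020, between 71.5% and 78.3%.

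Replicate 3 stood apart in all 4 dark groups. ATMG00020 made up 72.0%, 73.6%, 71.5% and 78.3% of the mitochondrial counts of replicate 3 in WT dark mock, WT dark ABA, pifq dark mock and pifq dark ABA. In replicates 1 and 2 of these groups it made up between 56.0% and 65.5%. In the light groups its share was between 50.3% and 65.3%, with the lowest value in replicate 3 of pifq light mock. The main results that rest on dark libraries are therefore also given without these 4 libraries. The labels do not say what replicate numbers share.

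The first comparison was of light with darkness. Mitochondrial rows took a smaller share of the counts in light in each genotype and treatment. In WT dark mock the share was 0.180%, 0.250% and 0.241% in the 3 libraries, against 0.0512%, 0.0561% and 0.0576% in WT light mock. In WT under ABA it was 0.162%, 0.227% and 0.194% in darkness and 0.0507%, 0.0616% and 0.0552% in light. In pifq mock it was 0.110%, 0.114% and 0.157% in darkness and 0.0421%, 0.0349% and 0.0315% in light. In pifq under ABA it was 0.0916%, 0.120% and 0.134% in darkness and 0.0465%, 0.0534% and 0.0372% in light. Every dark library thus lay above every light library, with no overlap in any of the 4 pairs of groups. The share was 4.04-fold higher in darkness in WT mock, 3.46-fold in WT under ABA, 3.48-fold in pifq mock and 2.52-fold in pifq under ABA, as ratios of geometric means. With 3 libraries against 3, an exact two-sided permutation test gave p = 0.10 in each, the smallest it allows. Without replicate 3 of the dark groups the log2 differences were -1.95, -1.79, -1.64 and -1.22, against -2.01, -1.79, -1.80 and -1.33 with them. Averaged over genotype and treatment with permutation within these strata, the share was 3.33-fold higher in darkness (exact p = 1.25e-05, the smallest possible, 0.000188 after Benjamini-Hochberg adjustment over 15 share comparisons). The averaged log2 difference was -1.73, and -1.65 without replicate 3 of the dark groups.

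**Figure D2:**
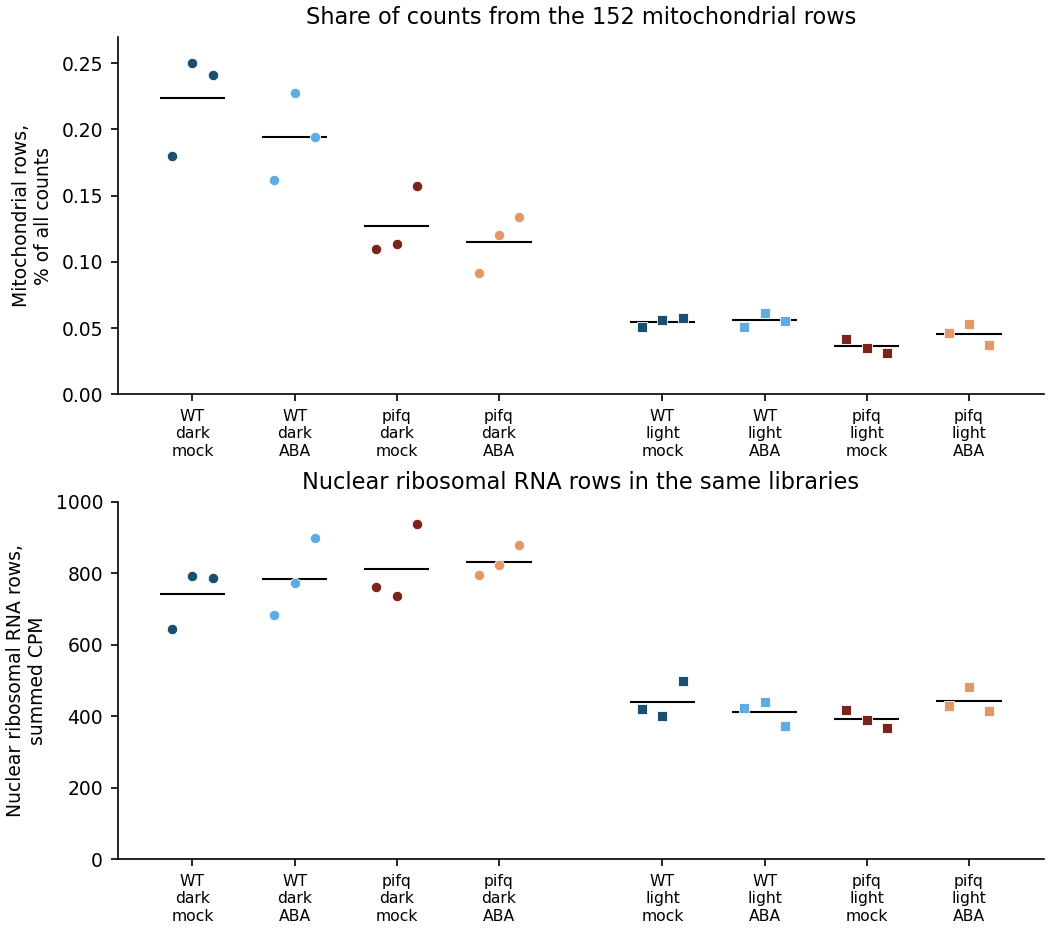
Upper panel, percent of all counts held by the 152 mitochondrial rows, with 1 point for each library and a line at the mean of 3. Lower panel, summed CPM of the nuclear ribosomal RNA rows in the same libraries. Both measures are higher in every dark library than in every light library, and the upper one is also lower in pifq than in WT in darkness.

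The nuclear ribosomal RNA rows, which a poly(A) selection should largely leave out, moved with light too. Their sum was 644 to 939 CPM over the 12 dark libraries and 368 to 498 CPM over the 12 light libraries. All 3 of their rows that were tested fell in light (edgeR). AT2G01010, an 18S ribosomal RNA, fell by 2.08 ± 0.09 on the log2 scale. The summed markers of mesophyll, the photosynthetic leaf tissue, also moved, from 2604 to 4774 CPM in WT dark mock to 10726 to 11311 CPM in WT light mock. None of the 4 was at 0. The 8 root markers summed to 225 to 259.9 CPM in WT dark mock and to 108 to 125 CPM in WT light mock, again with none at 0. Averaged, 4 of the 7 root markers tested rose in light and 3 fell (edgeR, median log2 change 0.94), where 77.7% of all rows tested changed. In WT, 1 rose and 3 fell in mock, and 4 rose and 3 fell under ABA. In pifq, 2 rose and 3 fell in mock, and 0 rose and 5 fell under ABA. On average the root hair genes EXPA7 (AT1G12560), EXPA18 (AT1G62980), PRP3 (AT3G62680) and SHV2 (AT5G49270) rose, and the endodermis genes CASP1 (AT2G36100), CASP2 (AT3G11550) and MYB36 (AT5G57620) fell. The part of these in the mitochondrial result was not tested.

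Single rows were tested by quasi-likelihood in edgeR, with p adjusted by Benjamini-Hochberg over all 20828 rows and called under 0.05. Averaged over genotype and treatment, 21 of the 36 rows fell in light, 5 rose and 10 did not pass. Of all rows tested, 77.7% changed with light, 39.9% lower and 37.8% higher. The 72.2% of mitochondrial rows called is thus near the background. Their median log2 change was -0.73, against -0.02 over all rows tested. The filter keeps a row that is high in 1 group only, so these figures describe the rows kept and not all 152. Leaving out replicate 3 of the dark groups, 27 of the 36 were called lower and 5 higher, with no background given for that fit.

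ATMG00020 and ATMG01390, which held most of the counts, fell by similar amounts in light. ATMG00020 stood at 977, 1344 and 1588 CPM in the libraries of WT dark mock and at 322, 360 and 368 CPM in WT light mock. In pifq mock it stood at 607, 652 and 1035 CPM in darkness and at 249, 209 and 172 CPM in light. The groups did not overlap in either genotype, and the log2 change averaged over all groups was -1.68 ± 0.13 (SE, edgeR, adjusted p = 1.71e-10). It was -1.47 with the third dark libraries left out. ATMG01390 stood at 403, 583 and 397 CPM in WT dark mock and at 91.2, 96.9 and 107 CPM in WT light mock. Its averaged log2 change was -1.68 ± 0.09 (edgeR, adjusted p = 7.53e-13), and -1.77 with those libraries left out. ATMG00030 changed less, by -1.17 ± 0.10 on the log2 scale.

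The largest falls among called rows were those of ATMG00285, ATMG00080 and ATMG00070. ATMG00080 stood at 8.36, 8.42 and 9.01 CPM in WT dark mock and at 1.34, 1.78 and 2.33 CPM in WT light mock. In pifq mock it stood at 7.43, 6.31 and 12.7 CPM in darkness and at 1.01, 1.36 and 1.53 CPM in light. Dark and light libraries did not overlap in either genotype, and the averaged log2 change was -2.14 ± 0.17 (edgeR, adjusted p = 1.35e-10), and -2.13 with the third dark libraries left out. ATMG00070 changed by -1.98 ± 0.19, and ATMG00090 by -1.79 ± 0.17. ATMG00285 had the largest log2 change, -2.35 ± 0.43, on at most 16 counts a library. Among rows with a name in the reference, ATMG01320, NADH dehydrogenase 2B, a part of the complex I subunit gene nad2, fell by 1.47 ± 0.28 on the log2 scale. It held 157 counts over the 24 libraries.

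A few rows rose in light while the sum fell. ATMG00040 stood at 0.0995, 0.205 and 0 CPM in WT dark mock and at 1.01, 0.661 and 0.647 CPM in WT light mock, a difference resting on 0 to 4 counts a library in darkness and 10 to 15 in light. Its averaged log2 change was 2.06 ± 0.33 (edgeR, adjusted p = 7.31e-06). ATMG01330 stood at 0.348, 0.359 and 0.336 CPM in WT dark mock and at 1.21, 0.925 and 1.10 CPM in WT light mock, with an averaged log2 change of 1.14 ± 0.19. ATMG01090, named ATP synthase 9 mitochondrial, stood at 0.896, 1.44 and 0.727 CPM in WT dark mock and at 2.35, 1.59 and 1.75 CPM in WT light mock. Its averaged log2 change was 1.07 ± 0.20. ATMG01220 and ATMG01370 rose by 0.95 ± 0.24 and 0.70 ± 0.18 on the log2 scale. Both ATMG01090 and ATMG01220 have near-identical copies in chromosome 2, and the reference notes also tie ATMG01330 to a pseudogene there. The same notes tie ATMG01320, which fell in light, to the chromosome 2 gene AT2G07689.

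**Figure D3:**
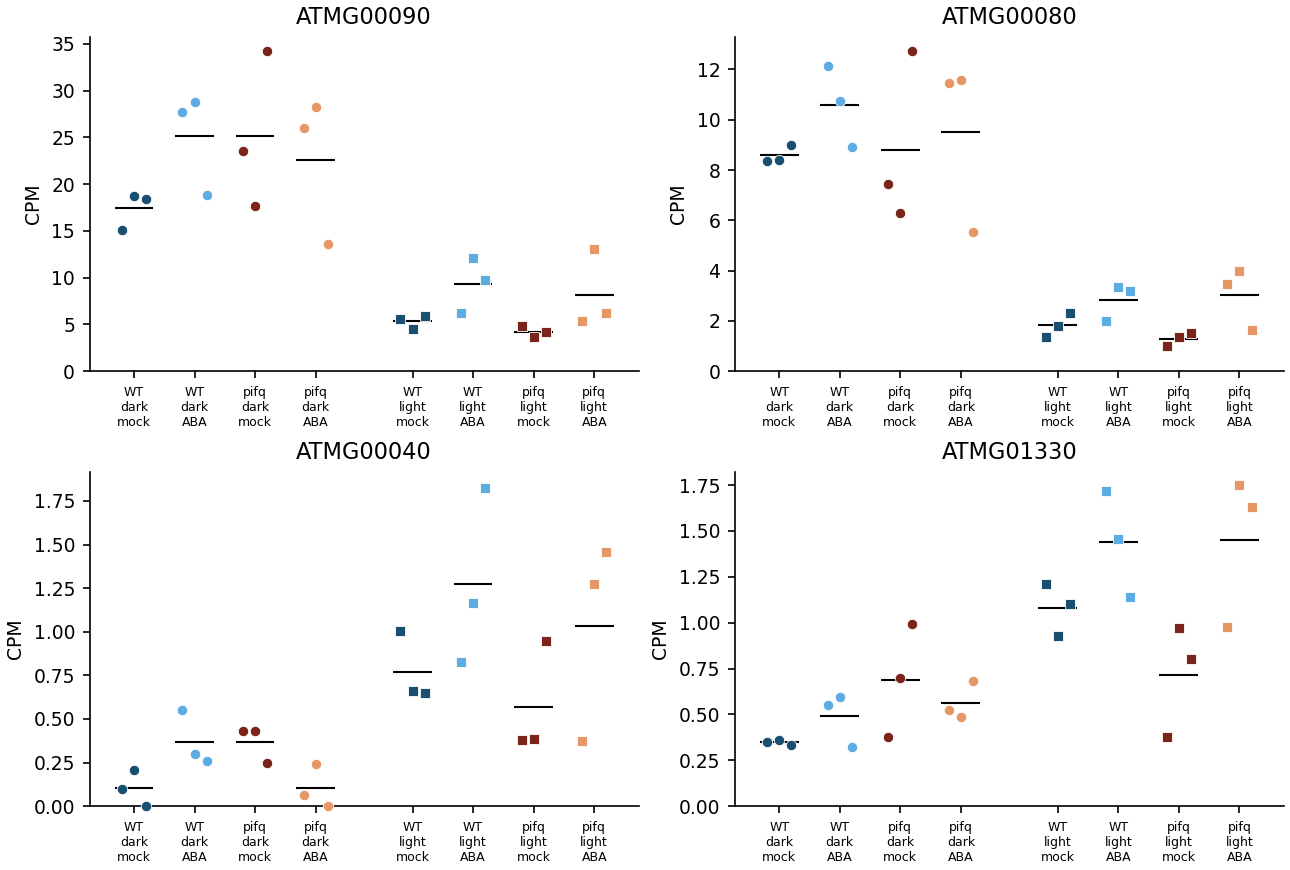
CPM of ATMG00090, ATMG00080, ATMG00040 and ATMG01330 in each library, with a line at the mean of 3. The upper pair of rows is lower in every light group than in every dark group, and the lower pair is higher on average in light, with overlap between libraries of pifq mock.

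Summed to 1 row and fitted with the nuclear rows, the mitochondrial counts changed by -1.55 ± 0.09 on the log2 scale in light (edgeR, adjusted p = 1.03e-12). Without the 3 rows of most counts the sum changed by -0.79 ± 0.13 (edgeR, adjusted p = 2.16e-05). These changes, without replicate 3 of the dark groups, were -1.44 and -0.92. By genotype and treatment, 20 rows fell and 3 rose in WT mock, where 64.9% of all rows tested changed (32.2% lower and 32.7% higher). In WT under ABA, 18 fell and 4 rose (background 62.6%, with 31.1% lower and 31.5% higher). In pifq mock 13 fell and none rose (57.3%, with 28.3% lower and 29.0% higher). In pifq under ABA 7 fell and 5 rose (56.1%, with 30.2% lower and 25.9% higher). In pifq the called rows were thus fewer than the background, while in WT they were near it. With the third dark libraries left out, 25, 23, 16 and 16 rows were called in these 4 comparisons. The share of all rows called in that fit is not given here, so these counts have no background beside them.

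**Figure D4:**
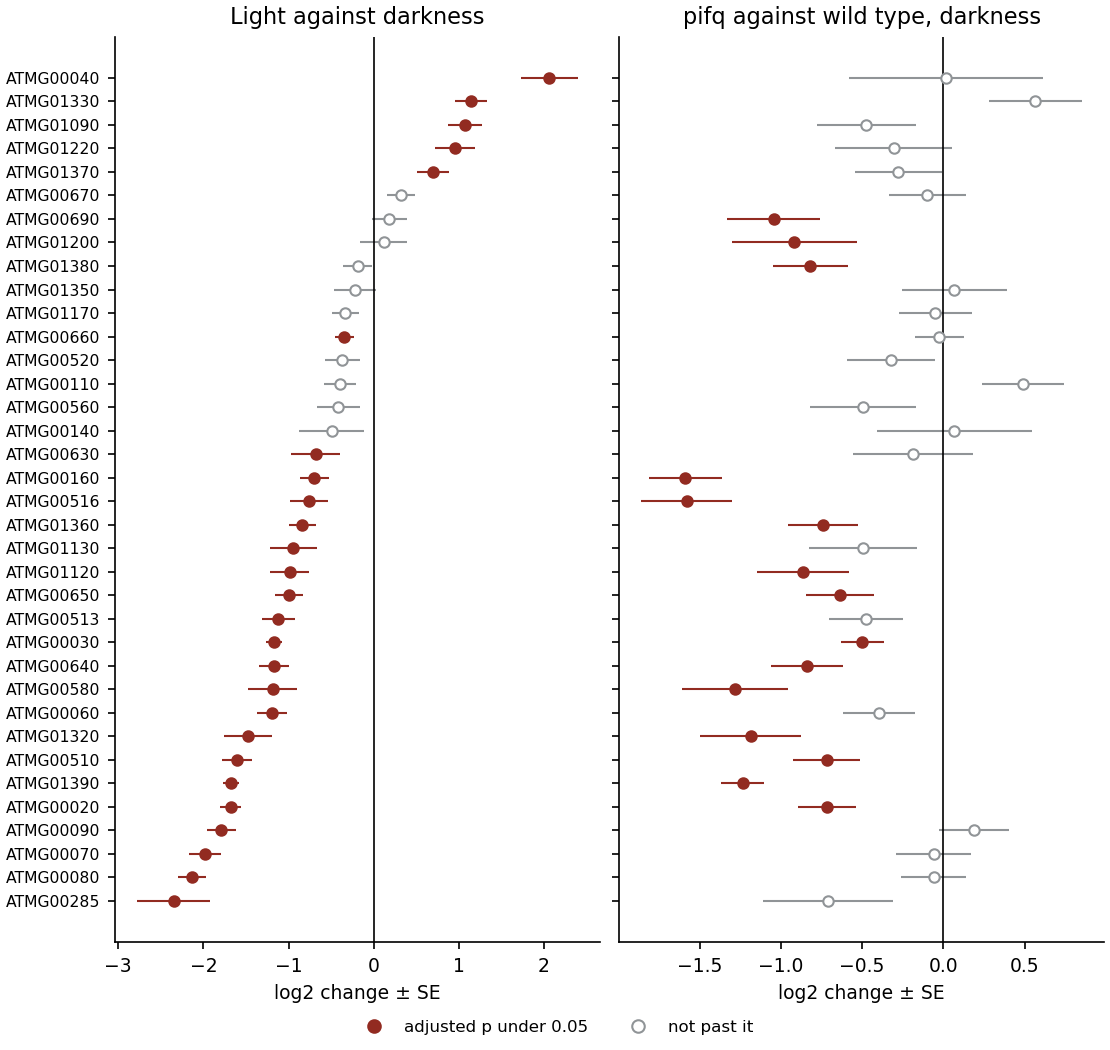
Log2 change, with its standard error, of the 36 mitochondrial rows tested, for light against darkness averaged over 4 groups on each side and for pifq against WT in darkness averaged over treatment. Filled points passed adjusted p under 0.05. On the left 21 are filled below 0 and 5 above it, and on the right 15 are filled, all below 0.

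The second comparison was of pifq with WT. In darkness the mitochondrial share of counts was lower in pifq, and the values above show no overlap with WT of the same treatment. It was 1.77-fold lower in mock and 1.69-fold lower under ABA (exact two-sided permutation, p = 0.10 in each, the smallest possible). Averaged over treatment it was 1.73-fold lower (exact permutation within treatments, p = 0.005, the smallest possible, 0.0375 after adjustment over 15 comparisons). Without replicate 3 of the dark groups the log2 difference was -0.90 against -0.79 with them, at exact p = 0.0556, the smallest that design allows. In light the share was 1.53-fold lower in mock and 1.23-fold lower under ABA, where the groups overlapped. Averaged over treatment in light it was 1.37-fold lower (exact permutation, p = 0.010, 0.050 after adjustment). Without the 3 rows of most counts, the log2 difference was -0.33 in darkness (exact permutation p = 0.165) and -0.21 in light (exact permutation p = 0.20).

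In darkness averaged over treatment, 15 of the 36 rows fell in pifq, none rose and 21 did not pass (edgeR). Over all rows tested 53.5% changed in this comparison, 24.5% lower and 29.0% higher. The 41.7% of mitochondrial rows called is below that background, and their direction was the same in all 15. The median log2 change of the 36 was -0.48, against 0.02 over all rows tested. There were 17 lower and none higher without replicate 3 of the dark groups, with no background given for that fit. In mock alone 11 fell and none rose (background 44.4%, with 20.9% lower and 23.5% higher). Under ABA 9 fell and none rose (39.7%, with 17.5% lower and 22.2% higher). In mock 7 rows passed without replicate 2 of WT or without replicate 1 or 2 of pifq. Under ABA 5 passed without replicate 1 of WT or replicate 3 of pifq, and 3 without replicate 2 of WT.

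Averaged over treatment, the largest falls in pifq in darkness were those of ATMG00160, ATMG00516, ATMG00580 and ATMG01390. ATMG00160 stood at 9.11, 12.2 and 4.48 CPM in WT dark mock and at 3.07, 2.70 and 1.74 CPM in pifq dark mock. Under ABA it stood at 11.5, 13.1 and 7.17 CPM in WT and at 4.84, 4.23 and 2.93 CPM in pifq. The genotypes did not overlap within a treatment, and replicate 3 was the lowest in each of the 4 groups. The log2 change averaged over treatment was -1.59 ± 0.22 (edgeR, adjusted p = 5.02e-06) and -1.66 without replicate 3. ATMG01390 stood at 196, 179 and 219 CPM in pifq dark mock, against 403, 583 and 397 CPM in WT dark mock. Under ABA it stood at 185, 202 and 136 CPM in pifq and at 440, 507 and 298 CPM in WT. The genotypes did not overlap, and the averaged log2 change was -1.24 ± 0.13 (edgeR, adjusted p = 1.23e-07) and -1.34 without replicate 3.

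ATMG00516 changed by -1.58 ± 0.28 and ATMG00580 by -1.28 ± 0.33 on the log2 scale, on 7 to 64 and 2 to 24 counts a library in the dark groups. Under ABA alone ATMG00580 changed by -0.49 ± 0.41 (edgeR, adjusted p = 0.368). The genotypes overlapped there for both rows. ATMG01320, NADH dehydrogenase 2B, changed by -1.19 ± 0.31. ATMG00020 changed by -0.72 ± 0.18 (-0.86 without replicate 3) and ATMG00030 by -0.50 ± 0.13, less than ATMG01390. In darkness ATMG00020 stood at 870, 1432 and 1425 CPM in WT under ABA and at 537, 758 and 1056 CPM in pifq under ABA, so replicate 3 of pifq lay above replicate 1 of WT.

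Rows with the largest falls in light were not all lower in pifq. ATMG00070, ATMG00080 and ATMG00090 had averaged log2 changes of -0.06 ± 0.23, -0.06 ± 0.20 and 0.19 ± 0.21 between pifq and WT in darkness, none past the threshold. ATMG00090 stood at 15.1, 18.7 and 18.4 CPM in WT dark mock and at 23.6, 17.6 and 34.2 CPM in pifq dark mock, so that the groups overlapped. The sum of all mitochondrial rows changed by -0.77 ± 0.13 in pifq in darkness (edgeR, adjusted p = 3.24e-05). Without the 3 rows of most counts it changed by -0.32 ± 0.18 (edgeR, adjusted p = 0.145). The nuclear ribosomal RNA rows had sums of 644 to 897 CPM for WT, against 737 to 939 CPM for pifq, over 6 dark libraries each, so the genotypes overlapped. Averaged over treatment, 1 of the 3 rows tested fell in pifq (edgeR), with 2 lower in mock alone and 0 under ABA. Mesophyll markers summed to 6898 to 8829 CPM in pifq dark mock, above the 2604 to 4774 CPM of WT dark mock. Root markers summed to 107 to 135 CPM there, below the 225 to 259.9 CPM of WT, but under ABA the sums overlapped, with pifq at 48.9 to 113 CPM against 78.6 to 162 CPM for WT. Averaged over treatment, 3 of 7 root markers were higher in pifq and 3 lower (edgeR), where 53.5% of all rows tested changed. In mock alone 0 were higher and 6 lower, and under ABA 4 were higher and 3 lower. The part of these cell types in the result was not tested.

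In light no mitochondrial row passed the test between pifq and WT, by edgeR. The background in mock was 10.6% (5.64% higher and 4.96% lower), under ABA 1.28% (0.586% and 0.696%) and averaged over treatment 11.6% (6.35% and 5.23%). At unadjusted p under 0.05 there were 3, 0 and 2 rows. DESeq2 called 1 in mock and 1 averaged over treatment. Averaged over treatment in light, ATMG00020 changed by -0.53 ± 0.18 (edgeR, adjusted p = 0.0561). The summed row changed by -0.40 ± 0.13 (edgeR, adjusted p = 0.0444), a call lost when any of 9 of the 12 libraries was left out. Of the 3 nuclear ribosomal RNA rows tested, 2 fell in pifq in mock, 1 under ABA and 2 averaged over treatment in light (edgeR). Their part in the mitochondrial result was not tested.

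The third comparison was whether the effect of genotype differed between light and darkness. Averaged over treatment, the difference itself passed the test for 5 of 36 rows, where 26.7% of all rows tested passed, 10.6% with a positive and 16.1% with a negative difference (edgeR). These were ATMG00580, ATMG00516, ATMG00160, ATMG01390 and ATMG01380. In all 5 the pifq value relative to WT, averaged over treatment, was higher in light than in darkness. For ATMG01380 this came from ABA, with a log2 difference of 2.04, against -0.13 in mock (edgeR, adjusted p = 0.885). In mock alone 4 rows passed with a positive and 1 with a negative difference (background 18.4%, 6.64% and 11.8%). Under ABA 2 passed with a positive one (16.9%, 7.08% and 9.80%), and 4 did without replicate 3 of WT dark ABA. The count in mock dropped to between 1 and 3 without any of 9 of the 12 libraries, the exceptions being replicate 3 of WT dark and of pifq dark and replicate 2 of pifq light. The interaction was 0.99 ± 0.18 on the log2 scale for ATMG01390 (edgeR, adjusted p = 0.000390) and 1.33 ± 0.34 for ATMG00160 (edgeR, adjusted p = 0.00527). In light ATMG00160 stood at 3.96, 2.44 and 2.91 CPM in WT mock and at 2.58, 1.87 and 2.91 CPM in pifq mock, so the genotypes overlapped there. ATMG01390 stood at 91.2, 96.9 and 107 CPM in WT light mock and at 82.6, 64.7 and 66.4 CPM in pifq light mock. These groups did not overlap, at a log2 change of -0.47 ± 0.19 (edgeR, adjusted p = 0.115). Without replicate 3 of the dark groups 6 rows passed, and without replicate 1 of pifq light mock 3 did. The interaction for the summed row was 0.37 ± 0.18 (edgeR, adjusted p = 0.141), and 0.50 without replicate 3 of the dark groups (edgeR, adjusted p = 0.0491).

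**Figure D5:**
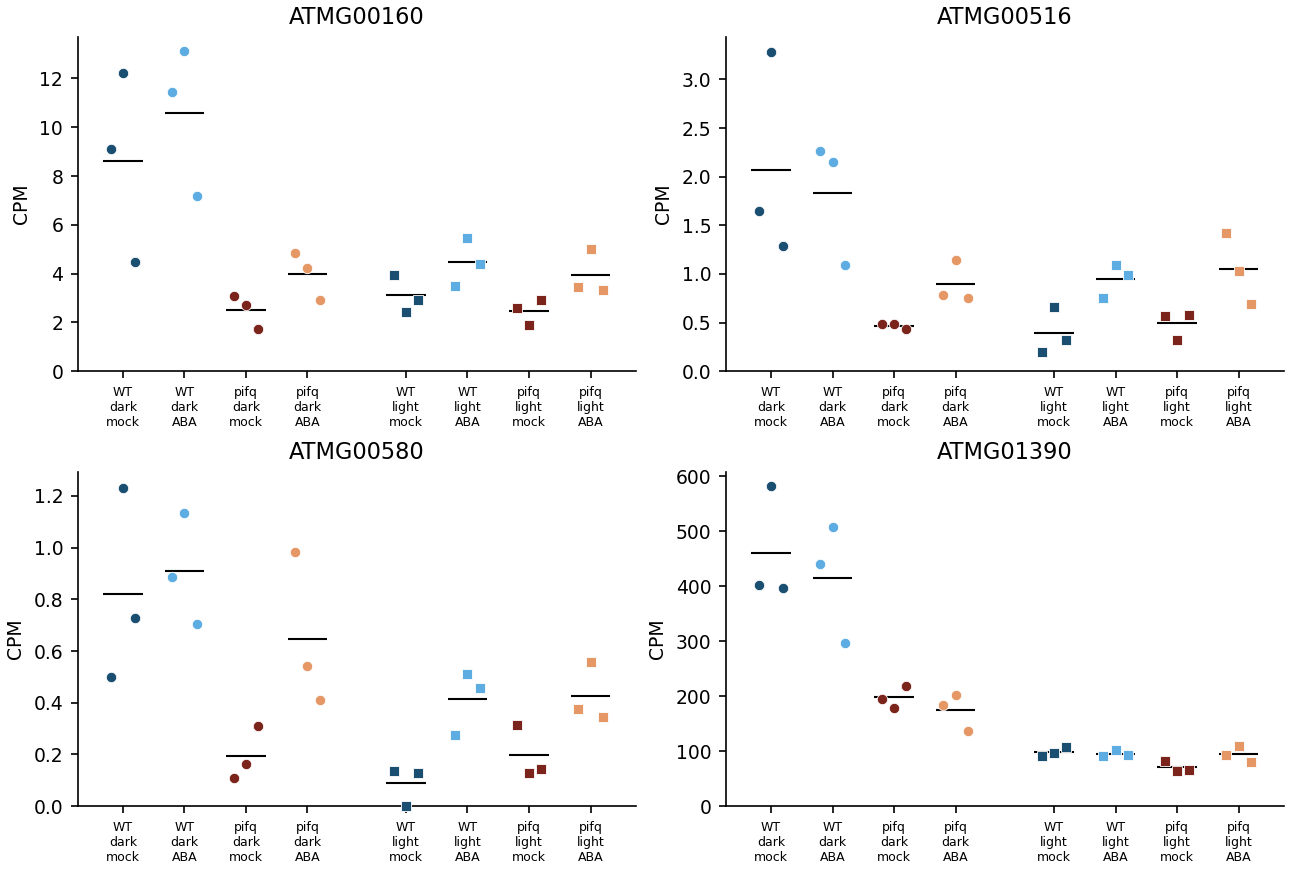
CPM of ATMG00160, ATMG00516, ATMG00580 and ATMG01390 in each library, with a line at the mean of 3. In darkness the WT means are above the pifq means of the same treatment. In light the genotype means differ by fewer CPM, and for ATMG00580 and ATMG00516 the pifq means are the higher ones. The genotypes of ATMG01390 in light mock do not overlap.

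The fourth comparison was of ABA with mock. The mitochondrial share of counts changed by -0.20 on the log2 scale in WT in darkness, 0.02 in WT in light, -0.14 in pifq in darkness and 0.33 in pifq in light. Each pair of groups overlapped (exact two-sided permutation, p = 0.40, 1, 0.60 and 0.20). Few rows passed the test, fewer than in the whole table. In WT in darkness 1 row rose and none fell, where 40.3% of all rows tested changed, 22.8% higher and 17.5% lower (edgeR). In WT in light 4 rose and none fell (background 40.0%, with 19.0% lower). In pifq in darkness 2 rose and 1 fell (48.6%, with 26.0% higher and 22.7% lower). In pifq in light 7 rose and none fell (46.7%, with 23.7% higher and 23.0% lower). In the same order, the median log2 change of the 36 rows was 0.22, 0.57, 0.03 and 0.66. Over all rows tested it was 0.07, 0.02, 0.03 and -0.01. The share without the 3 rows of most counts was 0.00413% to 0.00522% in pifq light mock. It was 0.00554% to 0.00913% in pifq light ABA, with no overlap, while the other pairs of groups overlapped.

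The row that rose in WT in darkness was ATMG00110, at 2.04, 1.90 and 1.40 CPM in mock and 5.15, 4.18 and 2.31 CPM under ABA. The groups did not overlap, and the log2 change was 1.12 ± 0.37 (edgeR, adjusted p = 0.0178). In WT in light ATMG00580, ATMG00516, ATMG00640 and ATMG01360 rose. ATMG01360 stood at 4.43, 3.83 and 4.92 CPM in mock and at 6.39, 11.8 and 8.22 CPM under ABA, a log2 change of 1.00 ± 0.34 (edgeR, adjusted p = 0.0225). In pifq in light ATMG01360 stood at 3.02, 2.84 and 4.15 CPM in mock and at 6.75, 10.9 and 8.49 CPM under ABA, a log2 change of 1.39 ± 0.35 (edgeR, adjusted p = 0.00282). ATMG00513 had the largest log2 change among the 7 called there, 1.85 ± 0.45. In pifq in darkness ATMG00580 and ATMG01170 rose by 1.73 ± 0.53 and 0.83 ± 0.32 on the log2 scale, and ATMG01380 fell by 0.96 ± 0.35.

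These ABA calls depended on single libraries. In WT in light 0 rows passed without replicate 2 of the ABA group, 1 without replicate 2 of mock and 2 without replicate 3 of the ABA group. In WT in darkness 0 rows passed without replicate 1 of the ABA group or replicate 3 of mock, and 2 rows passed without replicate 2 of mock. In pifq in darkness 1 row passed without replicate 1 of either group. Without replicate 3 of all dark groups, 5 rose and 1 fell in pifq in darkness, and 1 row rose in WT in darkness. In pifq in light 2 rows passed without replicate 2 of the ABA group. The sum of dividing-cell markers was lower under ABA, at 15.3 to 28.0 CPM against 50.6 to 66.3 CPM in mock in WT light, and its part was not tested.

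The difference of the ABA effect between genotypes passed for no row in darkness (background 11.4%) or in light (0.216%), with 4 and 1 rows at unadjusted p under 0.05 (edgeR). DESeq2 called 1 row in darkness and none in light. Between light and darkness the ABA effect differed for no row in WT (11.9%), with 2 at unadjusted p under 0.05, and none by DESeq2. In pifq it differed for ATMG00513 and ATMG01090, both higher in light (18.7%, with 9.02% higher and 9.65% lower), and DESeq2 called 1 row. That count was 0 without replicate 3 of pifq dark ABA, replicate 2 of pifq dark mock, replicate 2 of pifq light ABA or replicate 1 or 2 of pifq light mock. It was 1 without replicate 2 of pifq dark ABA or replicate 1 of pifq dark mock, and 4 without replicate 1 of pifq light ABA.

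Counts of nuclear genes of mitochondrial function, listed by textbook role, are set against the share of all rows tested that was called in the same comparison. In light averaged that background was 77.7%, with 37.8% higher and 39.9% lower. Of 27 genes tested for subunits of complexes I, II, III and V and cytochrome oxidase and for cytochrome c, 18 rose in light, 6 fell and 3 did not pass (edgeR, averaged). Their median log2 change was 0.20, against -0.02 over all rows. Among them SDH2-1 (AT3G27380), a subunit of succinate dehydrogenase, rose by 0.42 ± 0.04. Of 20 genes of mitochondrial gene expression and DNA upkeep, 8 rose in light and 2 fell, fewer calls than the background. POLGAMMA2 (AT1G50840), an organellar DNA polymerase, rose by 0.86 ± 0.06 on the log2 scale. Of 9 tested genes of alternative respiration, 3 rose and 5 fell. NDA1 (AT1G07180), an internal NADH dehydrogenase, rose by 6.52 ± 0.26, and AOX1A (AT3G22370), the alternative oxidase, rose by 0.66 ± 0.06.

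Between pifq and WT in darkness the complex subunits showed 3 rises and 3 falls among 27 (edgeR, averaged over treatment), below the background of 53.5%, with 29.0% higher and 24.5% lower. Genes of mitochondrial expression and DNA upkeep showed 11 rises and no fall among 20, a share called that is near that background. MSH1 (AT3G24320), which guards organellar genomes against recombination, rose by 0.79 ± 0.15. AOX1A (AT3G22370) fell by 0.45 ± 0.08. Under ABA in WT in darkness, 10 of the 27 complex genes rose and none fell, near the background of 40.3%, with 22.8% higher and 17.5% lower. CYTC-2 (AT4G10040), a cytochrome c, rose by 1.19 ± 0.17 on the log2 scale. Among genes of alternative respiration 5 rose and 2 fell, and AOX2 (AT5G64210), an alternative oxidase, rose by 4.03 ± 0.45.

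The chromosome 2 copies AT2G07698 and AT2G07727, whose reads cannot be told apart from those of atp1 and cob over nearly all of their length, fell in both main comparisons. AT2G07698 fell by 1.22 ± 0.18 in light, averaged, and by 1.00 ± 0.23 in pifq in darkness. AT2G07727 fell by 1.53 ± 0.27 and by 1.03 ± 0.29 in the same comparisons. Of the 9 chromosome 2 relatives tested, 2 rose, 3 fell and 4 did not pass in light, with a median log2 change of 0.22. In pifq in darkness none rose, 2 fell and 7 did not pass. These are fewer calls than the backgrounds of 77.7% and 53.5% of all rows tested. AT2G07715, the copy of ATMG00560, rose by 1.09 ± 0.15 in light. ATMG00560 itself changed by -0.41 ± 0.25, short of the threshold.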

How the data were processed

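Stranded libraries of oligo(dT)-selected RNA were read as 100-base pairs on a DNB-seq instrument, per the labels' protocols. The deposited file holds whole-number counts for each gene and library, with no normalization. STAR, SAMtools, FastQC and DESeq2 are named, with build TAIR10, in the submitters' processing notes. The counting program, its strand setting, its treatment of reads with several matches and the annotation version were not given in sources used here. All columns were matched to samples by name.

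From the counts, rows were kept by filterByExpr, scaled by TMM and tested in edgeR 4.0.16 (limma 3.58.1, R 4.3.3) by the quasi-likelihood test, with 1 coefficient for each of 8 groups, all 24 libraries in the fit, and Benjamini-Hochberg adjustment over the 20828 rows kept. CPM values use TMM-scaled totals. Shares of counts use plain totals and were compared on the log2 scale by exact two-sided permutation of libraries. The edgeR steps were tested on simulated counts. Summed rows were added after seeing the data. Windows and copies were compared on TAIR10.1 with blastn 2.17.0+. DESeq2 1.42.0 served as an alternative, beside other scalings, no filter, a fit of the compared groups alone, a replicate block and leaving out each library.

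The design text calls the replicates biological. Same-numbered libraries deviated together (every correlation over 0.1) in 2 of 12 two-group comparisons. For dark mock, pifq with WT, they were 0.134, 0.146 and 0.321, and for light ABA 0.393, 0.513 and 0.338. The pairing comes from the data and not from a label, and the block called 13 and 0 rows there against 11 and 0 without it.

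Named rows came from the 10 of highest mean CPM and the 3 highest and lowest changes among rows called in each comparison. For nuclear lists and chromosome 2 copies they came from the 3 called genes of lowest p in the main comparisons, with AOX1A. Not every such row was given with its values, as ATMG00690, ATMG00650, ATMG00660 and ATMG01130 were left out. Other rows named for a contrast with these were chosen after their values were seen. Members and lists were chosen with earlier results of these data known.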

Additional observations from a re-analysis of the deposited data

Results flagged for a closer look

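Differences of an effect between groups that passed edgeR's quasi-likelihood test (Benjamini-Hochberg adjusted over all rows tested) are given here as log2 values. The effect of pifq against WT differed between light and darkness in mock for ATMG00580 (3.18), ATMG00516 (2.43), ATMG00160 (1.43), ATMG01390 (0.75) and ATMG01330 (-1.55). Under ABA it differed for ATMG01380 (2.04) and ATMG01390 (1.24). Averaged over treatment it differed for ATMG00580 (1.86), ATMG00516 (1.81), ATMG00160 (1.33), ATMG01390 (0.99) and ATMG01380 (0.95). A positive value means that pifq relative to WT was higher in light than in darkness. ATMG00580 rested on 0 to 24 counts a library. The effect of ABA differed between light and darkness in pifq for ATMG00513 (1.82) and ATMG01090 (1.71), both higher in light.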

How the results depend on the processing

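Of the rows called by edgeR in the light comparison averaged over groups, 25 of 26 were called under each alternative. So were 13 of 15 between pifq and WT in darkness and 3 of 5 for genotype by light. All 26, 15 and 5 of these rows kept the sign of their log2 change under each alternative. Differences that were not called could change sign. The mitochondrial share for ABA against mock in WT in light did so without replicate 2 of the ABA group. Counts of rows called under an alternative or with libraries left out are given without the share of all rows called in that fit. With library totals alone, the median log2 change of all rows in light moved from -0.02 to -0.21 and 31 mitochondrial rows were called. That scaling called 2 rows for ABA in WT light and 1 each for pifq in light averaged, for ABA by light in pifq and for ABA by genotype in darkness, and the sum without the 3 rows of most counts in pifq under ABA in light was -0.62. Without a filter, 1 row was called for pifq in light mock, 2 for ABA in WT darkness, 2 for genotype by light in mock and 1 for ABA by light in pifq. DESeq2 called 1 each for pifq in light mock, pifq in light averaged, ABA by light in pifq and ABA by genotype in darkness. A fit of the compared groups alone called 4 for pifq in dark ABA, 2 for pifq in light mock, 1 for pifq in light averaged, 2 for genotype by light in mock and 1 for ABA by light in pifq. The replicate block called 2, 1, 2 and 0 in the last 4 of these and 1 for ABA by genotype in darkness. Without replicate 3 of the dark groups, 6 were called for ABA in pifq darkness and 4 for genotype by light under ABA. The sum without the 3 rows in pifq under ABA in light was then -0.63, the summed genotype by light value 0.50, and the share of pifq against WT in darkness -0.90, where no smaller p than 0.0556 was possible. Without the 3 rows of most counts, that share difference was -0.33, and -0.21 in light. The cause was not tested.

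Leaving out 1 library at a time gave these ranges of rows called by edgeR. They were 7 to 10 for pifq in dark mock, 3 to 11 in dark ABA, and 0 to 1 in light averaged. For genotype by light they were 1 to 4 in mock, 2 to 4 under ABA and 3 to 7 averaged. For ABA they were 0 to 2 in WT darkness, 0 to 5 in WT light, 1 to 3 in pifq darkness and 2 to 7 in pifq light. They were 0 to 4 for ABA by light in pifq and 0 to 2 for ABA by genotype in darkness. The summed row ranged from 0.30 to 0.47 for genotype by light and from -0.47 to -0.35 for pifq in light. Without the 3 rows of most counts it ranged from -0.94 to -0.56 for light in WT under ABA and from -0.66 to -0.23 in pifq under ABA. The share without ribosomal RNA rows was not run, since the sources used here do not annotate those identifiers. A fit of the compared groups alone is the same as the one reported where all 8 groups enter. Low counts, at most 24 a library, limit rows such as ATMG00580 and ATMG00040.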
